A study of Mus musculus with 48 samples.

Results

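The genes described here are 34 markers whose transcripts mark particular areas of the mouse forebrain or layers of its cortex. They were taken by symbol from the deposited table, and all 34 were found among its 19962 gene targets. The list was made to see whether the measured pieces of tissue came from alike brain areas in each genotype. The values are probe signals from GeoMx digital spatial profiling, in which photocleaved tags are collected from chosen regions of a brain section and counted by sequencing. The 16 columns of the table are headed with a genotype and a number. Of these, 5 are 5xFAD-LynKO, in which the 5xFAD transgenes stand on a Lyn knockout, and 5 are 5xFAD, a transgenic line that deposits amyloid. The other 6 are WT, and an APP group that the series text names is not analysed here. The brains were perfused with fixative and cut as frozen sections. The labels used here name no age, sex or strain background. The series text describes regions chosen by staining for TMEM119, a surface protein of microglia, or GFAP, the filament protein of astrocytes, with 6 regions of each kind per slice. No heading names a stain, a brain area or an animal, and the columns were taken as TMEM119-stained segments because the series text describes its analysis as microglial. The sample titles name 48 segments in 24 regions, which at 6 regions per slice leaves few slices. Several or all columns of a genotype may thus be regions of 1 slice or mouse. The p-values below treat columns as replicates and are too small where that is so. Differences between genotypes cannot then be told apart from differences between slices or mice.

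Area markers work because neurons of different forebrain areas keep separate programmes of gene expression. Medium spiny neurons of the striatum express dopamine receptors, the dopamine-regulated phosphatase inhibitor DARPP-32 (Ppp1r1b) and neuropeptides such as enkephalin (Penk). Glutamatergic neurons of cortex and hippocampus load vesicles through the transporter VGLUT1 (Slc17a7), whereas those of thalamus and hypothalamus mainly use VGLUT2 (Slc17a6). Cortical layers differ in transcription factors, with Cux1 and Cux2 in upper layers and Fezf2, Bcl11b, Tle4 and Foxp2 in deep layers. Most of the 34 genes are known as neuronal genes, and a glial segment can hold RNA of neurons in or beside it. Fewer neurons in a segment and less RNA per neuron cannot be told apart in such bulk signals.

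Each value is the signal divided by the median target of its own column, and is called a level here. The implied probe counts per column were 3207095 to 5793534 for 5xFAD-LynKO, 3205406 to 4148785 for 5xFAD and 1194249 to 2548601 for WT. The median target held 146 to 269, 153 to 195 and 55 to 118 counts in the same order, which gives it a counting error (SD) of 6.10 to 8.28%, 7.16 to 8.08% and 9.21 to 13.5% of its value. The negative control probe, which matches no mouse transcript, stood at 0.911 to 0.968 of the column median in 5xFAD-LynKO, at 0.933 to 0.957 in 5xFAD and at 0.859 to 0.918 in WT. Most targets thus lay near the probe background. Targets over 1.5 times the negative probe in 5 or more columns, 3364 in all, were taken as above background. The microglial marker that names the segments, Tmem119, averaged 0.788, 0.685 and 0.969 times the negative probe in 5xFAD-LynKO, 5xFAD and WT, and was not above background. Gfap averaged 1.22 ± 0.27, 1.17 ± 0.12 and 3.52 ± 1.63 times the column median in these groups (SD, n = 5, 5 and 6). Lyn averaged 1.13 ± 0.085 in 5xFAD-LynKO, 1.09 ± 0.057 in 5xFAD and 1.17 ± 0.14 in WT (SD, n = 5, 5 and 6), within 1.5 times the negative probe, so it does not check the genotype in the headings. It is not known whether its probe lies in the deleted part of the gene.

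Of the 34 markers, 7 were above background: Slc17a7, Penk, Ppp1r1b, Adora2a, Rgs9, Wfs1 and Cux1. The other 27 exceeded 1.5 times the negative probe in 4 columns at most. The number of markers over that level was 2 to 10 per column in 5xFAD-LynKO, 3 to 5 in 5xFAD and 5 to 12 in WT. The lowest target of any column still had 9 implied counts, so no marker was at 0 and a low level means background, not absence. The promoters of 3 striatal genes and of the cortical transporter are shown because the striatal genes were high in the same columns and Slc17a7 was low there. RefSeq promoter windows on GRCm38.p6, from 250 bases before to 50 after the gene's start, were found for 27 of the 34 genes. The windows of Slc17a7 (chr7:45163671-45163970, plus strand), Tac1 (chr6:7554811-7555110, plus strand), Rgs9 (chr11:109298132-109298431, minus strand) and Drd2 (chr9:49340153-49340452, plus strand) follow, 5′ to 3′, with motif letters in capitals.
Slc17a7: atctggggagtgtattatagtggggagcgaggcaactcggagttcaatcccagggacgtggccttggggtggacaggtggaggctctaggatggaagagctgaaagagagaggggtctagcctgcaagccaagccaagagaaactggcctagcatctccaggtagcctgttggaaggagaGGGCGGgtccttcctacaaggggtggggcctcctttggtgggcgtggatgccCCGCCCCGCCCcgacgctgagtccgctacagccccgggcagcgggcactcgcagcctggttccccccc
Tac1: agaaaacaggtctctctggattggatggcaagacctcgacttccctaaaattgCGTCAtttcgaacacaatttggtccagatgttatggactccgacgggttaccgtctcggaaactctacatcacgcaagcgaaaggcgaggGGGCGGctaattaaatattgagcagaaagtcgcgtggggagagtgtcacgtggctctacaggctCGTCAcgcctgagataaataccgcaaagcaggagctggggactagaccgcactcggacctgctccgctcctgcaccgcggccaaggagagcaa
Rgs9: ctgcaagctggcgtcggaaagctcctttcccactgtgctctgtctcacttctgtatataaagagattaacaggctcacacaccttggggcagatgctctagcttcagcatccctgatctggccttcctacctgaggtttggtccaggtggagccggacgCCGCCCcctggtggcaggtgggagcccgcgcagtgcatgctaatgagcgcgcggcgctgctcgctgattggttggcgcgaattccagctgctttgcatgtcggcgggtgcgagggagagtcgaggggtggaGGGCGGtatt
Drd2: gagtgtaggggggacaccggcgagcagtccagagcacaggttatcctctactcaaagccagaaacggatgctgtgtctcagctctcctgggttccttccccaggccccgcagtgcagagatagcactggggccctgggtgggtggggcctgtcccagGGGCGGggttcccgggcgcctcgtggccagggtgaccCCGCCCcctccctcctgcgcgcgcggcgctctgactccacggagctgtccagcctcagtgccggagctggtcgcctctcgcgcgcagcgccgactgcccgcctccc
The capitals mark the GC box GGGCGG and the cyclic AMP response half-site CGTCA, each searched on both strands with overlapping matches counted. The GC box occurs 3 times in the Slc17a7 window, once in that of Tac1, and 2 times in those of Rgs9 and Drd2. Among these 4 windows, the half-site occurs only in that of Tac1, 2 times. Of all 32851 windows, 35.7% hold a GC box and 20.8% the half-site, against 24 and 9 of the 40 windows of the marker genes. A match describes letters and not a bound site.

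The striatal markers gave the sharpest differences between columns. Ppp1r1b, which encodes DARPP-32 of medium spiny neurons, had levels of 0.996, 1.04, 1.28, 8.25 and 0.788 in 5xFAD-LynKO columns 1 to 5, and of 1.00, 1.37, 1.20, 0.966 and 0.909 in 5xFAD columns 1 to 5. In WT it had 9.15 in column 5, 6.52 in column 6, 2.49 in column 1 and 1.08 to 1.46 in the other 3 columns. A Ppp1r1b level of 6.52 or more, called high here, was seen in 1 of 5 columns of 5xFAD-LynKO, 0 of 5 of 5xFAD and 2 of 6 of WT. WT columns 1 and 4 were also over 1.5 times the negative probe, at 2.77 and 1.62. The implied counts behind the 3 high levels were 1534 in 5xFAD-LynKO column 4, 503 in WT column 5 and 528 in WT column 6.

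Penk, the precursor of the enkephalin peptides of indirect-pathway striatal neurons, was over 1.5 times the negative probe in all 16 columns. Its level was 1.64, 2.25, 1.82, 7.35 and 5.21 in 5xFAD-LynKO, 1.97, 1.92, 2.32, 1.98 and 2.27 in 5xFAD, and 2.47, 2.35, 2.01, 1.64, 15.7 and 7.99 in WT columns 1 to 6. It differed from Ppp1r1b in 5xFAD-LynKO column 5, where Penk was high and Ppp1r1b lay at 0.788. Adora2a, an adenosine receptor of the same indirect-pathway neurons, had 1.30, 1.46, 1.29, 2.54 and 1.30 in 5xFAD-LynKO and 1.62, 1.26, 1.22, 1.22 and 1.33 in 5xFAD. In WT, Adora2a reached 3.18 in column 5 and 1.88 in column 6, with 1.35 to 1.53 in the other 4. Rgs9, which speeds the end of G protein signals downstream of dopamine receptors, had 2.28 in 5xFAD-LynKO column 4 and 1.40 to 1.57 in the other columns of that genotype, 1.20 to 1.47 in 5xFAD, and 2.96 and 2.05 in WT columns 5 and 6 with 1.18 to 1.48 in the rest. The 3 columns with high Ppp1r1b thus also held the 3 highest levels of Adora2a and Rgs9.

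The remaining striatal markers were nearer to background and had the same 3 columns on top. Pde10a, the phosphodiesterase of medium spiny neurons, had 0.727, 0.729, 0.922, 2.18 and 0.781 in 5xFAD-LynKO, 0.617, 0.800, 0.843, 0.881 and 0.824 in 5xFAD, and 0.659 to 2.87 in WT with a median of 0.886. Tac1, the precursor of substance P in direct-pathway neurons, had 1.67 in 5xFAD-LynKO column 4 and 3.36 and 2.67 in WT columns 5 and 6. Its highest 5xFAD level was 1.64 in column 3, close to that of 5xFAD-LynKO column 4. The dopamine D1 receptor gene Drd1, of direct-pathway neurons, had 1.66 in 5xFAD-LynKO column 4 against 0.877 to 1.06 in that genotype's other columns, 1.04 to 1.18 in 5xFAD, and 2.15 and 1.44 in WT columns 5 and 6. The D2 receptor gene Drd2, of indirect-pathway neurons, had 1.75 in 5xFAD-LynKO column 4, 0.830 to 0.959 in 5xFAD, and 1.60 and 1.17 in WT columns 5 and 6.

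**Figure D1:**
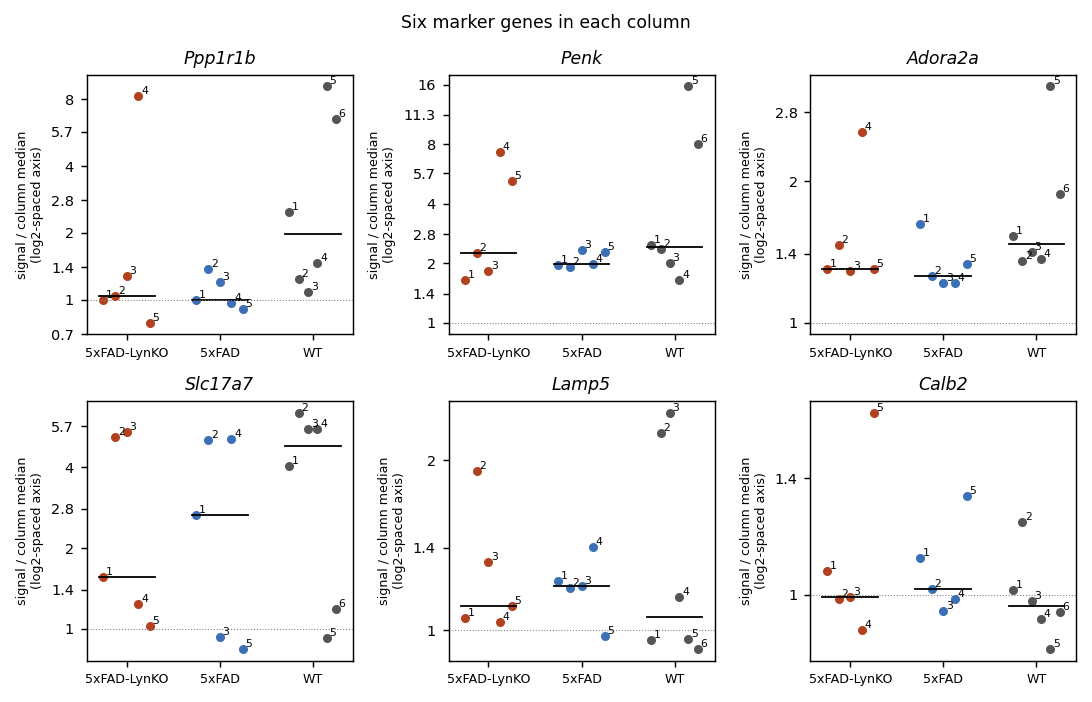
Levels of Ppp1r1b, Penk, Adora2a, Slc17a7, Lamp5 and Calb2 in each column, as signal over the column median on a log2-spaced axis. Each point is a column with its heading number, and the black lines are medians of the 5, 5 and 6 columns. Ppp1r1b reached 8.25 in 5xFAD-LynKO column 4 and 9.15 and 6.52 in WT columns 5 and 6, while all 5xFAD columns lay at or under 1.37.

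All 8 striatal markers had 5xFAD-LynKO column 4 and WT columns 5 and 6 as their 3 highest columns. Among all 19962 targets 0.436% had these 3 on top, and among the 3364 above background 0.595% did. The 3 columns were singled out after their values were seen, so this is a description with no test. Of 16 further striatal genes listed apart from the 34, 8 had the same 3 columns on top, among them Adcy5, Scn4b and Pdyn. Adcy5, the main adenylyl cyclase of striatal neurons, had 3.09 in 5xFAD-LynKO column 4 and 3.85 and 2.40 in WT columns 5 and 6, against 1.03 to 1.64 elsewhere. Scn4b, a sodium channel beta subunit, had 3.19, 3.07 and 2.41 in the same columns, against 0.630 to 1.504 elsewhere. On the log2 scale, the mean level of the 8 markers was 1.48 in 5xFAD-LynKO column 4, 1.92 in WT column 5 and 1.32 in WT column 6. It was 0.13 to 0.52 in the other 13 columns, so these 3 lay apart by both striatal lists.

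**Figure D2:**
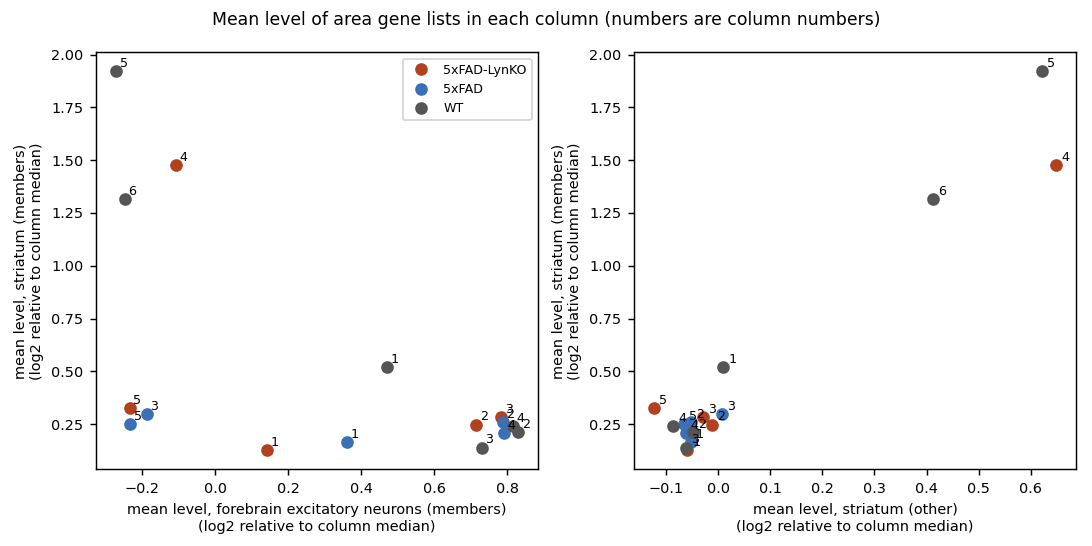
Mean log2 level of the 8 striatal markers in each column (vertical axes), against that of the 4 forebrain excitatory markers (left) and of 16 other striatal genes (right), both relative to the column median. Points are columns, coloured by genotype and numbered by heading. 5xFAD-LynKO column 4 and WT columns 5 and 6 stand at 1.48, 1.92 and 1.32 on the vertical axis, and no 5xFAD column lies above 0.30.

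The markers of forebrain excitatory neurons divided the columns in another way. Slc17a7 had levels of 1.55, 5.19, 5.42, 1.24 and 1.03 in 5xFAD-LynKO, 2.66, 5.07, 0.935, 5.11 and 0.841 in 5xFAD, and 4.05, 6.40, 5.57, 5.57, 0.927 and 1.19 in WT. It was thus over 4 in 2 of 5 columns of 5xFAD-LynKO, 2 of 5 of 5xFAD and 4 of 6 of WT, and near background in 2, 2 and 2 columns, with 5xFAD-LynKO column 1 and 5xFAD column 1 between. The 3 columns with high striatal markers had Slc17a7 levels of 1.24, 0.927 and 1.19. Tbr1, a transcription factor of early-born cortical projection neurons, had 0.872, 1.38, 1.42, 0.871 and 0.890 in 5xFAD-LynKO and 1.02, 1.28, 0.791, 1.20 and 0.795 in 5xFAD. In WT, Tbr1 ran from 0.753 in column 6 to 1.27 in column 4, with a median of 1.11. Neurod2 and Neurod6, transcription factors that persist in mature excitatory neurons of cortex and hippocampus, had levels of 0.667 to 1.18 and 0.709 to 1.37 over all columns, with their lowest levels in WT columns 6 and 5.

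The mean log2 level of these 4 genes was 0.72 and 0.78 in 5xFAD-LynKO columns 2 and 3, and 0.14, -0.11 and -0.23 in columns 1, 4 and 5. In 5xFAD it was 0.36, 0.79 and 0.79 in columns 1, 2 and 4, and -0.19 and -0.23 in columns 3 and 5. In WT it was 0.47, 0.83, 0.73 and 0.82 in columns 1 to 4, and -0.27 and -0.25 in columns 5 and 6. These means rest mainly on Slc17a7, the only 1 of the 4 above background; Neurod2 and Neurod6 exceeded 1.5 times the negative probe in 0 columns and Tbr1 in 1. Each genotype held columns with high Slc17a7 and columns with it near background. The mean log2 level of 13 pan-neuronal genes was 0.71 to 1.95 in 5xFAD-LynKO, 1.07 to 1.69 in 5xFAD and 1.12 to 2.09 in WT. It was lowest in 5xFAD-LynKO columns 1 and 4 and highest in WT column 2. The oligodendrocyte and white matter list was highest in WT column 1, at 1.61, WT column 4, at 1.32, and 5xFAD-LynKO column 1, at 1.17. The part of neuron or white matter content in the marker levels was not tested.

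Cortical layer markers were mostly near background. Lamp5, a membrane protein of upper-layer and some inhibitory cortical neurons, had 1.05, 1.91, 1.32, 1.03 and 1.10 in 5xFAD-LynKO, 1.22, 1.19, 1.20, 1.40 and 0.977 in 5xFAD, and 0.959, 2.23, 2.43, 1.14, 0.964 and 0.926 in WT. Its 3 highest levels, in WT columns 2 and 3 and 5xFAD-LynKO column 2, fell in columns whose Slc17a7 level was over 5. Cux1, the only layer marker above background, had 1.16 to 1.36 in 5xFAD-LynKO, 0.964 to 1.46 in 5xFAD and 1.27 to 1.78 in WT, and was highest in WT column 2. Cux2, a related upper-layer factor, ran from 0.678 in WT column 4 to 1.27 in WT column 6 and did not follow Lamp5. Rorb, a nuclear receptor of layer 4 neurons, stayed within 0.836 to 1.25 over all columns. Rasgrf2, a Ras exchange factor of superficial layers, ran from 1.05 to 1.63 and was highest in 5xFAD-LynKO column 5.

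Deep-layer markers gave no column set of their own. Bcl11b (CTIP2), which marks both subcerebral neurons of deep cortex and striatal medium spiny neurons, had its 3 highest levels in WT column 5, at 1.65, 5xFAD-LynKO column 4, at 1.5, and WT column 1, at 1.38. Its levels in 5xFAD were 0.909, 1.08, 0.987, 1.17 and 0.932. Fezf2, a factor that specifies subcerebral projection neurons, ran from 0.731 in 5xFAD-LynKO column 4 to 1.22 in 5xFAD column 2. Foxp2 and Tle4, of corticothalamic neurons, ran from 0.549 to 1.19 and from 0.591 to 1.02, and Nr4a2, of deep cortex and claustrum, from 0.634 to 1.17. The mean log2 level of the 6 deep-layer markers lay between -0.24 and 0.00 in 5xFAD-LynKO, between -0.27 and 0.08 in 5xFAD, and between -0.23 and 0.05 in WT. These ranges overlapped, and all 6 genes failed the background rule.

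The hippocampal markers were not raised together in any column. Wfs1, the wolframin gene, strong in CA1 pyramidal cells but also expressed in striatum and upper cortex, had 1.27, 1.15, 1.28, 1.56 and 1.61 in 5xFAD-LynKO, 1.47, 1.53, 1.70, 1.28 and 1.61 in 5xFAD, and 1.00, 1.18, 1.21, 1.17, 2.40 and 1.85 in WT. Its 2 highest levels were in WT columns 5 and 6, where the striatal markers were high. Prox1, the transcription factor of dentate granule cells, stayed within 1.07 to 1.19 in 5xFAD-LynKO, 1.07 to 1.25 in 5xFAD and 1.11 to 1.36 in WT. C1ql2, a secreted protein of dentate granule cell terminals, ran from 0.768 to 1.10 over all columns, and Fibcd1, of CA1 cells, from 0.924 to 1.15. C1ql2 and Fibcd1 exceeded 1.5 times the negative probe in 0 columns and Prox1 in 1. Calb1, calbindin of dentate, CA1 and upper-layer neurons, was highest in 5xFAD column 3 and 5xFAD-LynKO column 5, at 1.85 and 1.72, columns in which Slc17a7 was near background.

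The thalamic and cerebellar markers were near background, apart from Calb2 in 5xFAD-LynKO column 5 and Zic1 in WT column 5, at 1.86 and 1.54 times the negative probe. Slc17a6 (VGLUT2) ran from 0.836 to 1.30, with its highest level in 5xFAD-LynKO column 5. Calb2, calretinin of midline thalamic and of other neurons, had 1.07, 0.988, 0.993, 0.903 and 1.69 in 5xFAD-LynKO and 1.11, 1.02, 0.954, 0.989 and 1.33 in 5xFAD, against 0.855 to 1.23 in WT. Tcf7l2, a transcription factor of thalamic neurons that also acts in oligodendrocyte maturation, ran from 0.689 to 1.33. Prkcd, a protein kinase of thalamic relay neurons, and Zic1, a transcription factor of cerebellar granule cells, ran from 0.671 to 1.09 and from 0.976 to 1.38. Pcp2, a Purkinje cell protein, lay under the column median in all 16 columns, at 0.670 to 0.954, and Cbln1, the granule cell synapse organiser, at 0.720 to 1.08. No column had the thalamic or the cerebellar genes raised together.

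Some columns low in Slc17a7 and outside the 3 with high striatal markers shared genes outside the 34. 5xFAD-LynKO column 5 and 5xFAD columns 3 and 5 had 12 of their 20 most raised targets in common, among them Gad2, Gap43, Ndn, Nap1l5, Resp18 and Scg2, and 0 of the 12 were area markers from the list. Oxt, the oxytocin precursor of hypothalamic neurosecretory cells, had a level of 1.89 in 5xFAD-LynKO column 5 and 8.00 in 5xFAD column 5, against 0.852 to 1.20 in the other 14 columns. Gal, the neuropeptide galanin, had 2.20 and 1.63 in these 2 columns, a gene named after its values were seen. The mean log2 level of 12 hypothalamic genes was 0.19 in 5xFAD-LynKO column 5 and 0.33 in 5xFAD column 5, and -0.15 to 0.01 elsewhere. Without Oxt, the mean of the other 11, which include Gal, was 0.13 and 0.09 in these columns. A rise of the list without both genes was not shown, and no area was assigned to these columns. The 34 markers hold no hypothalamic gene. Within the list, 5xFAD-LynKO column 5 and 5xFAD columns 3 and 5 were low in Slc17a7. 5xFAD-LynKO column 5 was high in Penk and had the highest Calb2, Rasgrf2 and Slc17a6 levels of all columns, at 1.69, 1.63 and 1.30. Calb1 was 1.72 there and 1.85 in 5xFAD column 3. In 5xFAD column 5, Rasgrf2 was 1.43 and Calb2 1.33. The 3 columns with high striatal markers shared 7 of their 20 most raised targets, including Ppp1r1b and Penk.

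**Figure D3:**
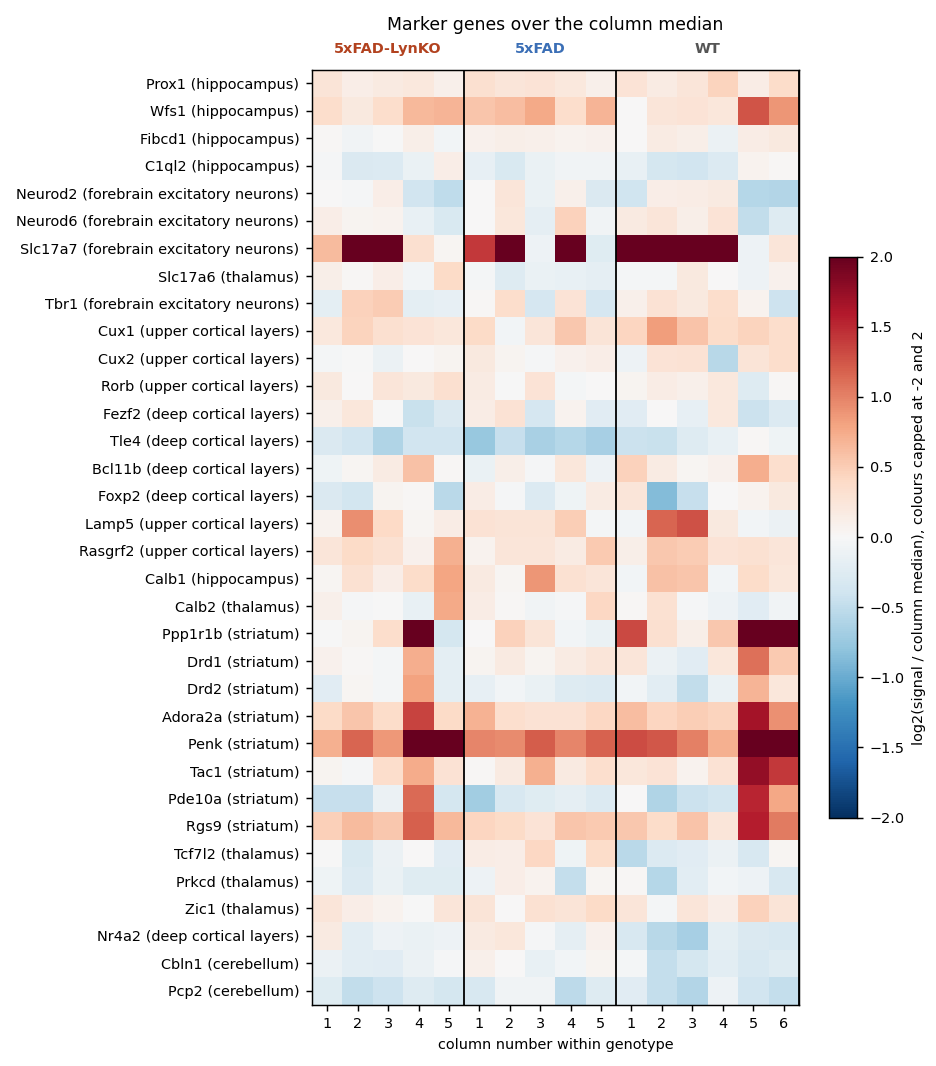
Levels of all 34 markers in the 16 columns as log2 of signal over column median, with colours capped at -2 and 2. The list each gene belongs to is in parentheses, and vertical lines part the genotypes. The 8 striatal markers have their highest levels in 5xFAD-LynKO column 4 and WT columns 5 and 6. Penk in 5xFAD-LynKO column 5, at 5.21, is past the colour cap too. Tac1 in 5xFAD column 3, at 1.64, is close to 5xFAD-LynKO column 4, at 1.67. Slc17a7 is near white in 5xFAD-LynKO columns 4 and 5, 5xFAD columns 3 and 5 and WT columns 5 and 6.

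Columns were then compared over the 34 markers as a whole, by the correlation of log2 levels after each gene was centred on its mean over columns. The points of each correlation are genes and are not independent, and columns differ in depth and in neuron content, so the values are descriptions. The best match of a column lay in another genotype for 9 of 16 columns. Most pairs of columns lie between genotypes, 85 against 10, 10 and 15 within them, so this count alone does not show likeness across genotypes. 5xFAD-LynKO column 4 matched WT column 5 (Pearson r = 0.917, Spearman rho = 0.770, n = 34 genes), and 5xFAD-LynKO column 2 matched WT column 3 (r = 0.841, rho = 0.737). 5xFAD-LynKO column 3 and WT column 4 were each other's best match (r = 0.823, rho = 0.635). The pair with the highest correlation was within a genotype, WT columns 5 and 6 (r = 0.943, rho = 0.893). Pairs of columns within 5xFAD-LynKO had a median r of -0.16 (range -0.71 to 0.77, 10 pairs), those within 5xFAD of 0.29 (-0.39 to 0.79, 10 pairs) and those within WT of 0.01 (-0.70 to 0.94, 15 pairs). The 85 pairs between genotypes had a median of -0.003 (-0.81 to 0.92). The 4 ranges overlapped widely, and the median was highest within 5xFAD. Over the 3291 targets above background on none of the lists, the best match lay in another genotype for 5 of 16 columns, and it was the same column as over the markers for 8 of 16.

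**Figure D4:**
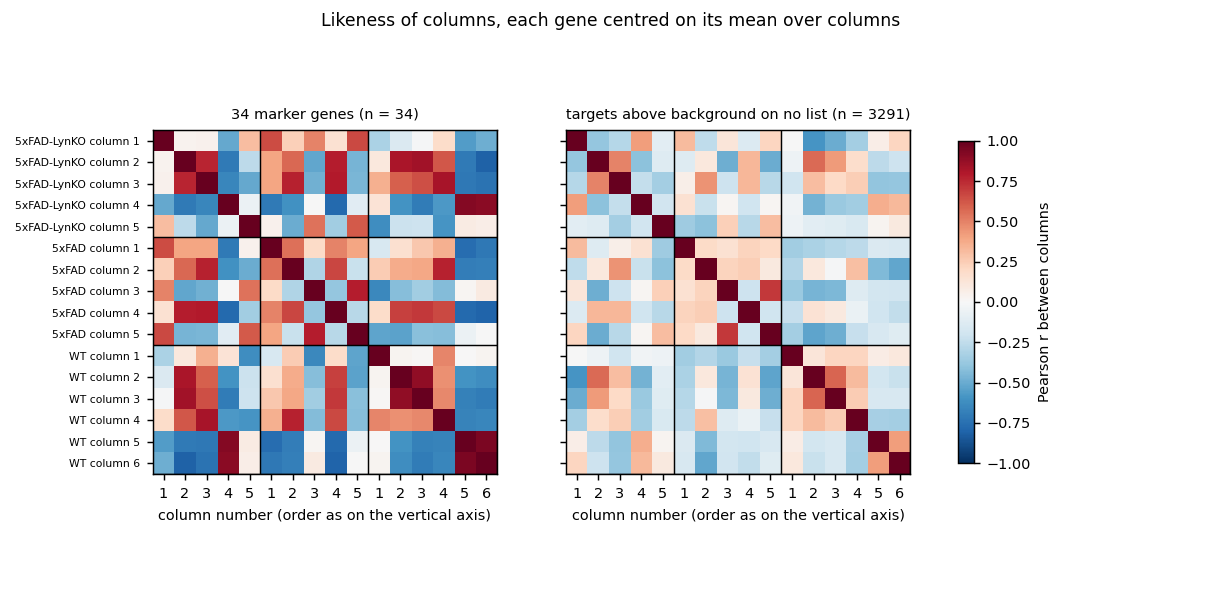
Pearson correlation between columns over the 34 markers (left) and over 3291 targets above background that are on no list (right), after centring each gene. Both axes run over the 16 columns in the same order, with lines between genotypes. On the left, 5xFAD-LynKO column 4 pairs with WT columns 5 and 6, and on the right the correlations lie closer to 0, at 0.57 or less between genotypes.

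The spread of the markers within a genotype was set against counting noise by a chi-square per degree of freedom over the implied counts, which is about 1 for counting noise alone. It exceeded 5 for 19 of 34 markers in 5xFAD-LynKO, 8 in 5xFAD and 13 in WT, that is 55.9%, 23.5% and 38.2%. Among all targets the shares were 12.1%, 5.84% and 3.40%. Ppp1r1b had 881, 6.09 and 262 in the 3 genotypes, Penk 393, 2.91 and 464, and Slc17a7 342, 257 and 99.6. Ppp1r1b and Penk thus varied far beyond counting noise in 5xFAD-LynKO and WT and less so in 5xFAD, whereas Slc17a7 varied widely in all 3. For the same relative spread this ratio grows with counts, and WT columns held fewer counts. Its size and these shares are therefore not directly comparable between genotypes. The SD of the Ppp1r1b level was 3.2 in 5xFAD-LynKO, 0.19 in 5xFAD and 3.4 in WT. A related ratio for pairs of columns of a genotype, scaled by total counts, was averaged over targets. Over all targets it was lowest for WT columns 5 and 6, at 1.16, and 5xFAD columns 3 and 5, at 1.18. Over the markers it was 8.43 and 2.47 for these pairs, and lowest for WT columns 2 and 3, at 0.873. All columns were kept as separate samples.

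The comparison of 5xFAD with WT asks how amyloid-bearing tissue differs from normal tissue in the study's microglial segments. Differences were tested with limma on log2 levels over all targets, with Benjamini-Hochberg adjustment. Of the 34 markers 4 passed an adjusted p of 0.05, 3 higher and 1 lower in 5xFAD, while 14.2% of all targets passed (5.99% higher, 8.24% lower). The markers' share was therefore near that of all targets. At an unadjusted p under 0.05 there were 8 markers, against 30.0% of all targets. The median log2 difference was -0.02 over the 34 markers and 0.007 over all targets.

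All 4 markers that passed lie near the negative probe. Nr4a2, a nuclear receptor of deep cortex, claustrum and dopamine neurons, had 1.13, 1.17, 0.980, 0.886 and 1.06 in 5xFAD, against 0.634 to 0.873 with a median of 0.800 in WT. Its log2 difference was 0.44 ± 0.093 (SE, limma adjusted p = 0.00393), and the groups did not overlap. Tcf7l2 had 1.11, 1.10, 1.33, 0.943 and 1.28 in 5xFAD, against 0.689 to 1.02 with a median of 0.843 in WT, a difference of 0.43 ± 0.097 (SE, limma adjusted p = 0.00602), with overlap in 1 column of each group. Cbln1 had 1.08, 1.01, 0.902, 0.960 and 1.04 in 5xFAD, against 0.720 to 0.973 with a median of 0.820 in WT, a difference of 0.26 ± 0.080 (SE, limma adjusted p = 0.0281). Tle4 was lower in 5xFAD, with 0.591, 0.723, 0.641, 0.676 and 0.631 against 0.732 to 1.02 with a median of 0.869 in WT, a difference of -0.39 ± 0.092 (SE, limma adjusted p = 0.00714), and without overlap. Among all targets 5.10% had no overlap between 5xFAD and WT, and among the markers 2 did. In terms of the negative probe, the group means in 5xFAD and WT were 1.10 and 0.858 for Nr4a2, 1.22 and 0.954 for Tcf7l2, 1.05 and 0.928 for Cbln1 and 0.689 and 0.962 for Tle4. The negative probe itself stood higher against the column median in 5xFAD than in WT without overlap. When columns were scaled by the negative probe instead, Nr4a2, Tcf7l2 and Tle4 still passed in limma and Cbln1 did not. All 4 calls ended when columns were scaled by the pan-neuronal mean (limma adjusted p 0.710 to 0.799), where 8 of all targets passed, against 2841. The differences there were 0.67 for Nr4a2, 0.66 for Tcf7l2, 0.49 for Cbln1 and -0.16 for Tle4. These calls also ended when the negative probe was subtracted (limma adjusted p 0.0574 to 0.366), where 1452 of all targets passed. The call of Cbln1 was lost when WT column 2 or 3 or 5xFAD column 1, 2 or 5 was left out, whereas no single column ended the calls of Nr4a2, Tcf7l2 or Tle4.

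None of the 7 markers above background passed in 5xFAD against WT, where 18.7% of the 3364 targets above background did, and 2 of the 7 had an unadjusted p under 0.05. Ppp1r1b averaged 1.09 ± 0.19 in 5xFAD (SD, n = 5) and 3.66 ± 3.4 in WT (SD, n = 6). Its log2 difference was -1.25 and the 95% interval ran from -2.20 to -0.30 (limma adjusted p = 0.0678). Penk averaged 2.09 ± 0.19 in 5xFAD (SD, n = 5) and 5.36 ± 5.6 in WT (SD, n = 6), a difference of -0.81 with an interval of -1.67 to 0.05 (limma adjusted p = 0.197). Slc17a7 averaged 2.92 ± 2.1 in 5xFAD (SD, n = 5) and 3.95 ± 2.4 in WT (SD, n = 6), a difference of -0.47 with an interval of -1.52 to 0.57 (limma adjusted p = 0.561). Ppp1r1b passed in some other settings: its adjusted p in limma was 0.0441 when scaled by the negative probe, 0.00529 when scaled by the pan-neuronal mean and 0.00705 with that mean as covariate. Under the covariate Penk, Adora2a, Tac1 and Pde10a passed as lower too, with limma adjusted p of 0.0403 to 0.0495, as 2238 of all targets passed. With single columns left out, the adjusted p of Ppp1r1b was 0.0492, 0.0388 and 0.0435 without WT column 2, 3 or 4, and 0.0189 without 5xFAD-LynKO column 4. Cux1 passed without 5xFAD column 4, with a difference of -0.29 (limma adjusted p = 0.0408), against -0.22 (limma adjusted p = 0.127) with all columns. The 8 striatal markers were all lower on average in 5xFAD, with a median log2 difference of -0.37, and the 16 other striatal genes had a median of -0.19 with 0 passing and 5 at an unadjusted p under 0.05. Without WT columns 5 and 6 and 5xFAD-LynKO column 4, a choice made after seeing the data, the difference of Penk was -0.0009 and that of Rgs9 0.006, while that of Ppp1r1b was -0.46 (limma adjusted p = 0.0695) and that of Slc17a7 -1.25 (limma adjusted p = 0.0764). Cbln1 lost its call there (limma adjusted p = 0.0632). In that setting Wfs1 was higher in 5xFAD by 0.41 (limma adjusted p = 0.0167), against 0.11 (limma adjusted p = 0.655) with all columns.

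Lists of other cell types were counted in the same comparison, in which 8.24% of all targets were lower. Of the 3364 targets above background, 614 were lower and 14 higher. Above background were 7 of 14 microglial, 7 of 12 astrocyte, 4 of 9 oligodendrocyte and 13 of 13 pan-neuronal genes. The counts below are thus to be read beside both shares. Of 14 microglial genes 9 were lower and 0 higher in 5xFAD than in WT, and the mean log2 level of that list was 0.13 to 0.31 in 5xFAD and 0.41 to 1.39 in WT, highest in WT columns 1 and 3. Of 12 astrocyte genes 3 were lower and 0 higher, with list means of 0.57 to 0.80 in 5xFAD and 0.91 to 1.17 in WT. Of 9 oligodendrocyte genes 3 were lower and 0 higher, with list means of 0.31 to 0.74 in 5xFAD and 0.40 to 1.61 in WT. Of 13 pan-neuronal genes 1 was lower and 0 higher, with list means of 1.07 to 1.69 in 5xFAD and 1.12 to 2.09 in WT. No gene of these lists was at 0 in any column. Their part in the marker differences was not tested.

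**Figure D5:**
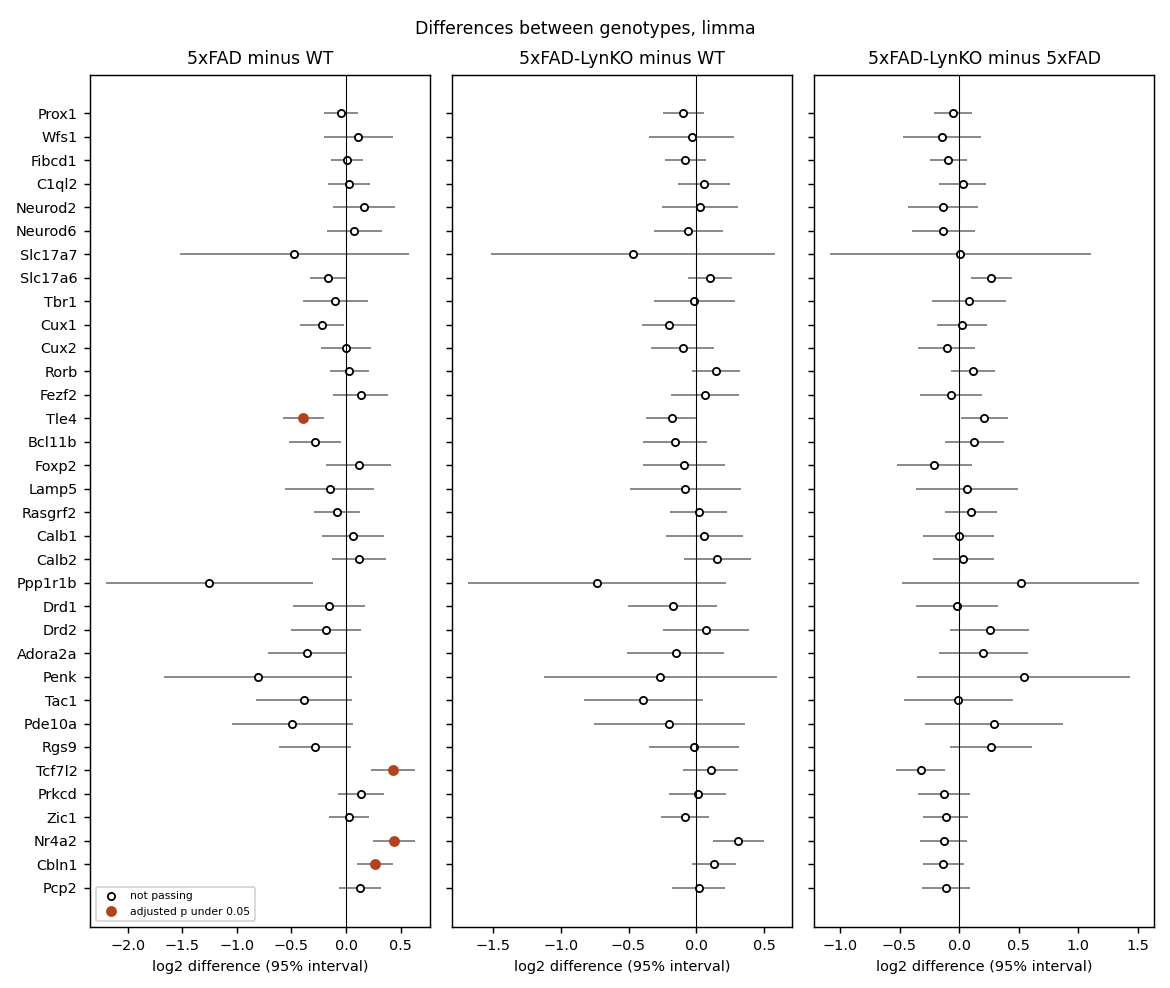
Log2 difference of each marker between genotypes, with 95% intervals from limma over 5, 5 and 6 columns. Filled points passed an adjusted p of 0.05 over all targets. In 5xFAD against WT, Nr4a2, Tcf7l2 and Cbln1 lie above 0 and Tle4 below it, while in the comparisons of 5xFAD-LynKO with WT and with 5xFAD no point is filled, and the intervals of Ppp1r1b, Penk and Slc17a7 are the widest.

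The comparison of 5xFAD-LynKO with WT shares its WT columns with the one above. In limma 0 of 34 markers passed, with 1 at an unadjusted p under 0.05, while 0.0651% of all targets passed, that is 13, or 3 to 16 with a column left out (0.00501% higher, 0.0601% lower) and 8.83% had an unadjusted p under 0.05. Of targets above background 0.208% passed, and of the 7 markers above background 0. The smallest adjusted p among the markers was 0.435, that of Nr4a2. Nr4a2 had 1.13, 0.860, 0.929, 0.914 and 0.932 in 5xFAD-LynKO, against 0.634 to 0.873 in WT, a log2 difference of 0.31 (95% interval 0.12 to 0.50). Slc17a7 differed by -0.47, interval -1.51 to 0.58, and Ppp1r1b by -0.74 with an interval of -1.69 to 0.22. These intervals leave room for changes of over 1 log2 unit in the striatal and excitatory markers. The median log2 difference was -0.05 over the 34 markers and 0.003 over all targets. None of the markers was without overlap between these groups, against 0.656% of all targets. Of 14 microglial genes 5 were lower and 0 higher in 5xFAD-LynKO, with list means of 0.09 to 0.19 there and 0.41 to 1.39 in WT, and their part in the marker values was not tested.

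The comparison of 5xFAD-LynKO with 5xFAD asks what the loss of Lyn adds in 5xFAD tissue. In limma 0 of 34 markers passed, with 3 at an unadjusted p under 0.05, and 0% of all targets passed, with 2256 (11.3%) at an unadjusted p under 0.05. Without 5xFAD column 4, 129 targets passed and 0 of the markers. The smallest adjusted p was 0.222, for Slc17a6 and Tcf7l2. Slc17a6 had 1.08, 1.02, 1.09, 0.968 and 1.30 in 5xFAD-LynKO, against 0.974, 0.836, 0.915, 0.903 and 0.881 in 5xFAD, a log2 difference of 0.27 (95% interval 0.10 to 0.44). Tcf7l2 had 0.996, 0.806, 0.918, 1.01 and 0.856 in 5xFAD-LynKO, against 1.11, 1.10, 1.33, 0.943 and 1.28 in 5xFAD, a difference of -0.32 with an interval of -0.53 to -0.11. Both genes passed with array weights, which are estimated from the same data, as did 643 of all targets. The groups of both genes overlapped. Ppp1r1b averaged 2.47 ± 3.2 in 5xFAD-LynKO and 1.09 ± 0.19 in 5xFAD (SD, n = 5 each), a difference of 0.52 with an interval of -0.48 to 1.51 (limma adjusted p = 0.756), and without 5xFAD-LynKO column 4 and WT columns 5 and 6 it was -0.09. The 8 striatal markers had a median difference of 0.26, and the 34 markers of 0.0024, against 0.0021 over all targets. Slc17a7 differed by 0.01 with an interval of -1.09 to 1.11, so a change of about 1 log2 unit either way lies within the error. None of the markers was without overlap between these groups, against 2.69% of all targets.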

How the data were processed

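Signals of GeoMx tags, read by Illumina sequencing per the labels' protocols, were taken from the deposited table, which holds 19962 targets and 1 negative probe in 16 columns. The deposited values are a normalized signal that is never negative. No source used here names the software, the filters or the way of normalization. The deposited column median was 196.078 in all 5xFAD-LynKO columns, 159.416 in all 5xFAD columns and 86.6856 in all WT columns. Columns thus shared a scale within each genotype and not between genotypes. Each column has a smallest step, and 19959 of its 19963 values came out whole (tolerance 0.0001) after division by it. These implied counts served for depth and noise only. A planned count model on them was not run, because the unit could not be established as counts. Columns were taken to genotypes from their headings.

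For levels, each value was divided by the column median. For tests, log2(value + 1) minus the column median was fitted in R 4.3.3 by limma 3.58.1, using lmFit and eBayes, over all 16 columns and targets, without covariates, with an adjusted p threshold of 0.05; steps were tested on simulated data. The pseudocount and the unsubtracted probe background can shrink a true change of a low target. A difference at background need not reflect such a change. Intervals are 95% and cover the spread between columns. The markers and the 17 further lists (198 genes, 195 measured) were chosen with earlier results of these data known. Named genes are all 34 markers, Lyn, Tmem119 and Gfap, and from each further list the 3 of highest mean level and up to 2 called; other names were chosen after their values were seen, namely Gal and the genes shared among the most raised targets. Some items are not reported here. Alternatives were other scalings, pseudocounts of 5 and 0.1, a background filter, subtraction of the negative probe, array weights, a neuronal covariate, the heading number as a block and columns left out. Promoters came from RefSeq tables. Figures were drawn with matplotlib 3.10.9.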

Additional observations from a re-analysis of the deposited data

Results flagged for a closer look

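In 9 of 102 groups (a marker in a genotype), 1 column stood far from the others of its genotype by Dixon's criterion for groups of 4 to 10 values. Chance alone gives such a result in about 1 of 20 groups, so some of these may be chance. Of the 9, 5 are striatal markers in 5xFAD-LynKO column 4, with levels of 8.25 for Ppp1r1b (other columns 0.788 to 1.28), 1.75 for Drd2 (0.851 to 1.03), 2.54 for Adora2a (1.29 to 1.46), 2.18 for Pde10a (0.727 to 0.922) and 2.28 for Rgs9 (1.40 to 1.57). Calb2 was 1.69 in 5xFAD-LynKO column 5, against 0.903 to 1.07 in the other columns of that genotype. Nr4a2 was 1.13 in 5xFAD-LynKO column 1, against 0.860 to 0.932. Pde10a was low in 5xFAD column 1, at 0.617 against 0.800 to 0.881. Tbr1 was low in WT column 6, at 0.753 against 1.05 to 1.27.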

How the results depend on the processing

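Between 5xFAD and WT, 4 markers passed. The number was 7 when scaled by the negative probe, 8 with the pan-neuronal mean as covariate, 1 when scaled by the pan-neuronal mean (Ppp1r1b), 1 with the negative probe subtracted (Slc17a6), 0 among targets above background only, and 3 to 5 when a column was left out. Neither of the single calls is among the 4, all of which were lost in those settings. Over all 19962 targets, 2841 passed in the main fit. That number was 3450 when scaled by the negative probe and 2238 with the covariate. It was 8 when scaled by the pan-neuronal mean and 1452 with the negative probe subtracted. Among the 3364 targets above background, 597 passed. The other alternatives, apart from no rescaling, gave 3 to 5. Calls over all targets ranged from 1400 to 3816 with a column left out, against 2841, and were 1629, 1418 and 1400 without 5xFAD columns 2, 3 and 5. They were 3 to 16 between 5xFAD-LynKO and WT, against 13, and 0 to 129 between 5xFAD-LynKO and 5xFAD, against 0. Between 5xFAD-LynKO and WT, and between 5xFAD-LynKO and 5xFAD, 0 markers passed, also with each column left out (0 to 0). Array weights gave 2 between 5xFAD-LynKO and 5xFAD, where 643 of all targets then passed. Without rescaling, the median of all targets shifts by 0.88, 1.17 and 0.30 between 5xFAD and WT, 5xFAD-LynKO and WT, and 5xFAD-LynKO and 5xFAD. This shift follows the deposited scale, whose column median is the same within each genotype and differs between them. Calls without rescaling therefore cannot be told apart from that scaling. In the same order, 30, 32 and 14 markers then passed, as did 19827, 19929 and 15004 of the 19962 targets. Differences below 0 by less than the shift turn positive by construction. Of those, the ones that also passed are given with their values. Between 5xFAD and WT these were Prox1 0.83, Slc17a6 0.70, Tbr1 0.77, Cux1 0.65, Tle4 0.48, Bcl11b 0.59, Lamp5 0.72, Rasgrf2 0.79, Drd1 0.72, Drd2 0.69, Adora2a 0.51, Tac1 0.49 and Rgs9 0.59. Between 5xFAD-LynKO and WT these were Prox1 1.07, Wfs1 1.13, Fibcd1 1.09, Neurod6 1.11, Tbr1 1.15, Cux1 0.97, Cux2 1.07, Tle4 0.99, Bcl11b 1.01, Foxp2 1.08, Lamp5 1.09, Drd1 1.00, Adora2a 1.01, Penk 0.90, Tac1 0.78, Pde10a 0.97, Rgs9 1.15 and Zic1 1.08. Between 5xFAD-LynKO and 5xFAD these were Prox1 0.25 and Fibcd1 0.21. The heading number as a replicate block gave 4, 0 and 0 markers, with 2617, 17 and 0 of all targets passing. Headings share numbers, but same-numbered columns had a median correlation of deviations of 0.24, over 0.1 in 8 of 15 pairs, against -0.03, over 0.1 in 22 of 70 other pairs, and 6 of 15 had their best match in another genotype at the same number. Since not every same-numbered pair was over 0.1, the numbers were not taken to pair the columns, though shared origin was not tested.

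The span of list means (highest minus lowest column, log2) was larger with only markers above background, which leaves 1 gene in each of these lists: Wfs1 for hippocampus (1.25 against 0.39), Slc17a7 for excitatory neurons (2.91 against 1.10) and Cux1 for upper layers (0.88 against 0.52). Relative to the pan-neuronal mean it was 1.35 for hippocampus, 1.02 for upper layers, 1.51 for deep layers (against 0.35), 2.68 for striatum (against 1.79), 1.57 for thalamus (against 0.32) and 1.66 for cerebellum (against 0.38), since that mean itself ranged from 0.71 to 2.09. The count model was not run. Depth, signal over the negative probe and regions of unknown origin limit the precision: of 34 markers 27 were near background, WT columns held fewer counts, and no source used here ties a column to an area or an animal.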
